A study of Drosophila melanogaster with 6 samples.

Results

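Cytosolic ribosomal protein genes code for the proteins of the ribosomes that translate nuclear messages. They were taken here as every gene identifier of the count tables whose current symbol starts with RpL or RpS followed by a digit or P, together with sta, the gene of the small subunit protein also known as RpSA. The rule gave 88 of the 15682 identifiers, 51 of the large and 37 of the small subunit. A further 5 genes that fit the rule by symbol (RpL19, RpL27A, RpL31, RpS10b and RpS12) carry identifiers without a row of their own in these tables and were not analysed here. The female libraries came from virgin w1118 females aged 15 days, and the male libraries from virgin w1118 males of the same age, 3 libraries of each, all flies being kept at 29 °C. Each library was made from 30 dissected midguts, the absorptive and enzyme-secreting middle part of the gut, and no source says whether the replicates were raised apart, so the p-values below speak for the spread among these pools, which may be technical.

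A ribosome joins a large subunit, which forms peptide bonds, to a small subunit, which reads the message, and each holds a single copy of nearly every one of its proteins. Loss of a single gene copy of many of these proteins gives the Minute flies of Drosophila, with thin bristles and slow growth. In flies their genes share an initiator of pyrimidine bases at the transcription start, and the transcription factor Myc is known to raise the level of ribosomal protein and ribosome assembly genes. In the adult midgut, growth of enterocytes and division of stem cells both draw on new ribosomes.

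Library totals ranged from 23825935 to 33278485 counts in females and from 30600544 to 38406746 in males, so that 3 counts stood for 0.0781 to 0.124 CPM (counts per 1000000 counts of the scaled library, the unit of all levels below), a floor that covers counting error only. Markers of enterocytes, the main cells of the midgut, were present in all libraries, their 5 genes summing to 2650 to 3010 CPM in females and 2560 to 2990 CPM in males. Markers of the visceral muscle around the gut were present too, and those of other tissues were low. The 5 testis markers summed to 0 counts in all female libraries, to 3 counts each in male replicates 1 and 2 and to 176 counts in male replicate 3. In RNA of whole midguts, fewer cells of a type and less RNA per cell cannot be told apart.

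Ribosomal protein messages took a larger share of the female than of the male midgut libraries. The 88 genes together took 9.27%, 10.3% and 9.14% of all counts in female replicates 1 to 3, against 5.57%, 5.78% and 7.80% in male replicates 1 to 3. Every female library stood above every male library, and male replicate 3 stood nearest to the females. The mean share was 9.58% ± 0.648 (SD) in the 3 female libraries and 6.38% ± 1.23 in the 3 male libraries, and the two-sided permutation test, which is exact here, gave p = 0.1, its lowest possible value with groups of 3. Large subunit genes took 5.72% ± 0.386 (SD, n = 3) in females and 3.77% ± 0.757 (n = 3) in males, and small subunit genes took 3.86% ± 0.262 in females and 2.61% ± 0.475 in males.

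**Figure D1:**
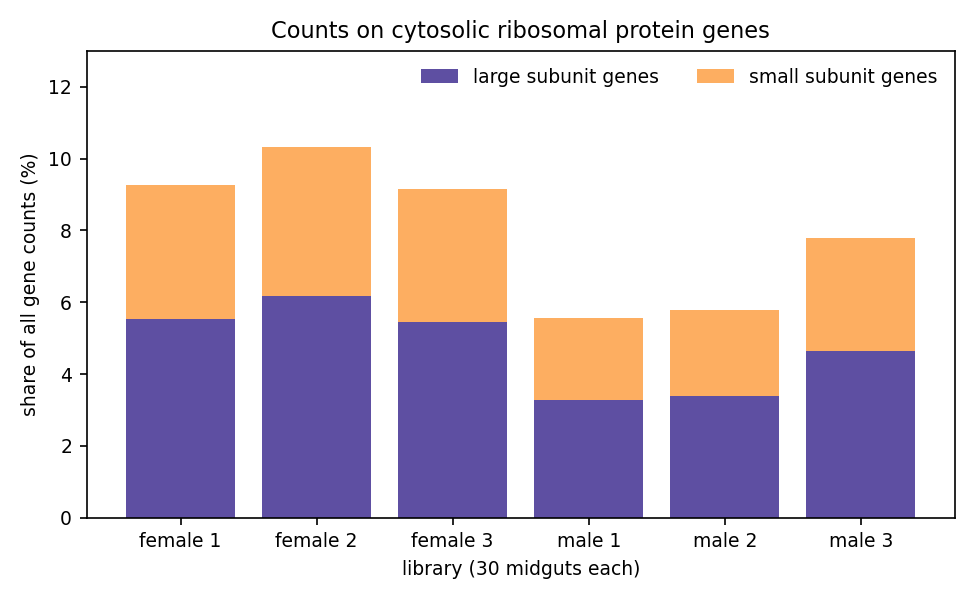
Share of all gene counts, in percent, that fell on cytosolic ribosomal protein genes in each of the 6 libraries, with the large subunit at the foot of each bar and the small subunit on top. The female bars reach 9.14% to 10.3% and the male bars 5.57% to 7.80%, the highest male bar being replicate 3.

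Of the 88 genes, 80 passed the filter on low counts and all 80 had a higher fitted level in females, although 46 of them did not pass the test. The median log2 fold change, female over male, was 0.64, a 1.56-fold difference, and the values ran from 0.20 to 0.94, where the median over all 8941 genes tested was -0.02. In the quasi-likelihood test of edgeR, 34 of the 80 were higher in females at an adjusted p under 0.05 and 0 were lower, against 3.87% of all genes tested that were higher and 5.53% that were lower. The female and male libraries did not overlap for 56 of the 80, all with females above males, against 12.4% of all genes with females above males and 13.8% with males above females. By subunit, 21 of 47 large subunit genes passed (median log2 0.67) and 13 of 33 small subunit genes (median log2 0.61).

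The spread within each sex was shared by the members. Female replicate 2 was the highest of the 6 libraries for 77 of the 80 genes, and the lowest was male replicate 1 for 53 and male replicate 2 for 27. Male replicate 3 was the fourth library in order for 55 genes and stood among the upper 3 for 24, the same number of genes for which the sexes overlapped. With male replicate 3 set aside, the females lay above males 1 and 2 for 78 of the 80 genes. The share of all genes that did so was not computed, and 3 libraries clear 2 more easily than 3. In the fit without male replicate 3, 75 passed, with a median log2 of 0.83, where 4.21% of all genes passed as higher in females. Leaving out one of the other libraries lowered the number. It was 3 without male replicate 2 (1.8% of all genes), 9 without female replicate 2 (2.52%), 11 without female replicate 1 (1.86%), 16 without female replicate 3 (2.39%) and 20 without male replicate 1 (4.58%). RpL27, RpS3A and RpL7-like were called in all 6 of these fits, although 1771 of the 1793 exon bases of RpL7-like also belong to CG34164 on the same strand, so that its counts may not measure RpL7-like alone. With all 6 libraries, 57 members passed in DESeq2 (6.17% of all genes) and 5 at an adjusted p under 0.01 (1.52%). The 57 held all 34 of the genes called by edgeR.

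**Figure D2:**
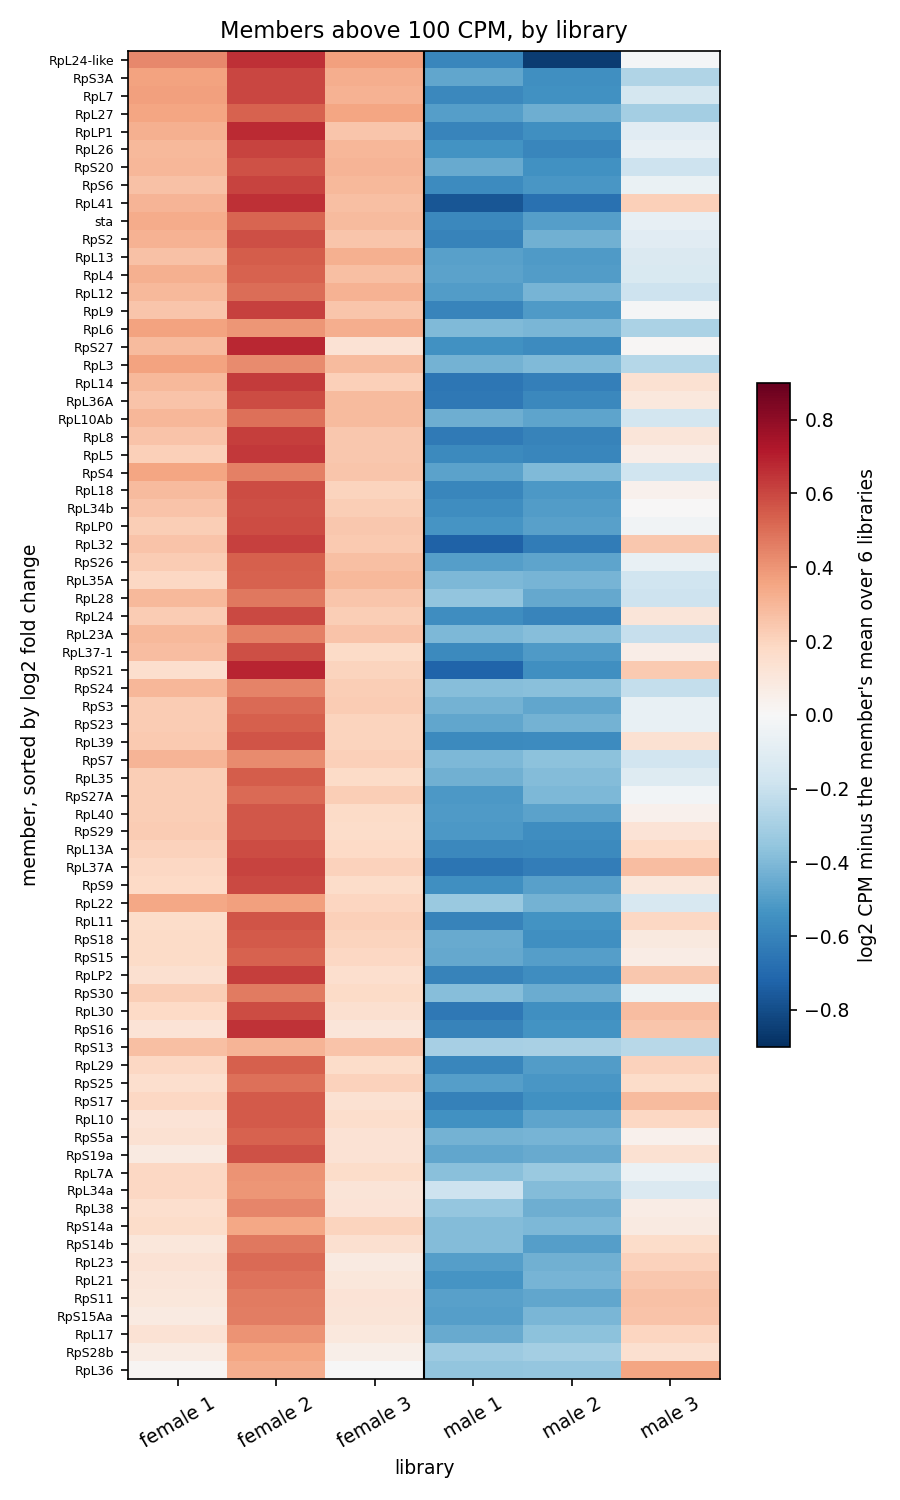
Log2 CPM of 74 of the 76 members with a female mean above 100 CPM, as the difference from each member's mean over the 6 libraries, females on the left and members sorted by log2 fold change. Nearly all rows share a pattern, with female replicate 2 the highest column, male replicates 1 and 2 the lowest, and male replicate 3 between the sexes or, for members toward the foot, within the female range.

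The 10 members with the smallest p-values held RpL7-like and RpL24-like beside structural proteins of the ribosome. RpL27, on chromosome arm 3R, had 1193, 1345 and 1195 CPM in females, against 661, 688 and 753 CPM in males (log2 0.83 ± 0.15 SE, edgeR adjusted p = 0.00489). Idh3g overlaps its exons from the opposite strand, and whether reads were counted by strand is not stated. RpS3A, the small subunit gene on chromosome 4, stood at 2012, 2382 and 1966 CPM in females, against 1136, 1070 and 1296 CPM in males (log2 0.86 ± 0.16, edgeR adjusted p = 0.00635). For both genes the lowest female library lay far above the highest male library, male replicate 3 included.

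RpL6, a large subunit protein, varied little within each sex. RpL6 had 1804, 1853 and 1763 CPM in females, against 1068, 1056 and 1151 CPM in males (log2 0.73 ± 0.14, edgeR adjusted p = 0.00867). The libraries of the sexes did not come near each other. RpL3, a protein that reaches the catalytic centre of the large subunit and whose exons overlap an antisense RNA gene, averaged 2828 ± 140 CPM in females and 1718 ± 111 CPM in males, and RpL12, of the base of the stalk that receives the translation factors, 1236 ± 103 CPM in females and 742 ± 86.7 CPM in males (± SD of 3 libraries). RpL12 and RpL39 overlap each other on opposite strands, as do RpS20 and CG17272. RpL7 averaged 1508 ± 165 CPM in females and 837 ± 141 CPM in males, and RpS20, a small subunit protein, 935 ± 105 CPM in females and 542 ± 72.5 CPM in males. These 4 had log2 fold changes of 0.72 to 0.85 and edgeR adjusted p-values of 0.0101 to 0.0128.

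Among the other members that passed were proteins of known position in the ribosome. RpL4, which lines the exit tunnel, had 1932, 2237 and 1865 CPM in females, against 1107, 1095 and 1410 CPM in males (log2 0.74 ± 0.17, edgeR adjusted p = 0.017). RpL23A, at the mouth of that tunnel, had 2091, 2337 and 2041 CPM in females, against 1289, 1313 and 1478 CPM in males (log2 0.66 ± 0.15, edgeR adjusted p = 0.0177). In both genes male replicate 3 was the highest male library and lay well under the lowest female. The level of RpL23A is uncertain, since 518 of its 1321 exon bases overlap Uhg7 or a snoRNA gene on the same strand and 121 overlap CG7974 on the opposite strand. RpS2 and RpS3, at the channel through which messages enter the small subunit, had log2 fold changes of 0.75 ± 0.18 and 0.64 ± 0.17 (edgeR adjusted p = 0.0225 and 0.039). RpL13, RpL26, RpL9, RpL35A and RpL28 of the large subunit and RpS4, RpS26, RpS24, RpS23 and RpS7 of the small subunit passed as well, with log2 fold changes of 0.63 (RpS7) to 0.79 (RpL26) and no overlap between the sexes.

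RpL5 and RpL11, which form a particle with the 5S ribosomal RNA before it joins the large subunit, did not pass. RpL5 had 3108, 4170 and 3162 CPM in females, against 1804, 1783 and 2792 CPM in males (log2 0.71 ± 0.21, edgeR adjusted p = 0.0649). RpL11 had 1035, 1364 and 1069 CPM in females, against 608, 636 and 1050 CPM in males (log2 0.60 ± 0.22, edgeR adjusted p = 0.139). For RpL5 the sexes did not overlap, and for RpL11 male replicate 3 lay within the female range. RpLP2, the partner of RpLP1 in the stalk, had 1204, 1684 and 1211 CPM in females, against 721, 740 and 1289 CPM in males (log2 0.58 ± 0.24, edgeR adjusted p = 0.198), and here too male replicate 3 exceeded a pair of female libraries. RpL40 and RpS30, made like RpS27A as fusions with ubiquitin or a related protein, had log2 fold changes of 0.62 ± 0.19 and 0.57 ± 0.17 (edgeR adjusted p = 0.0725 and 0.0596). RpL4, RpL23A, RpS2, RpS3, RpL5, RpL11, RpLP2, RpL40 and RpS30 were singled out for their known place or make, with their values known.

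**Figure D3:**
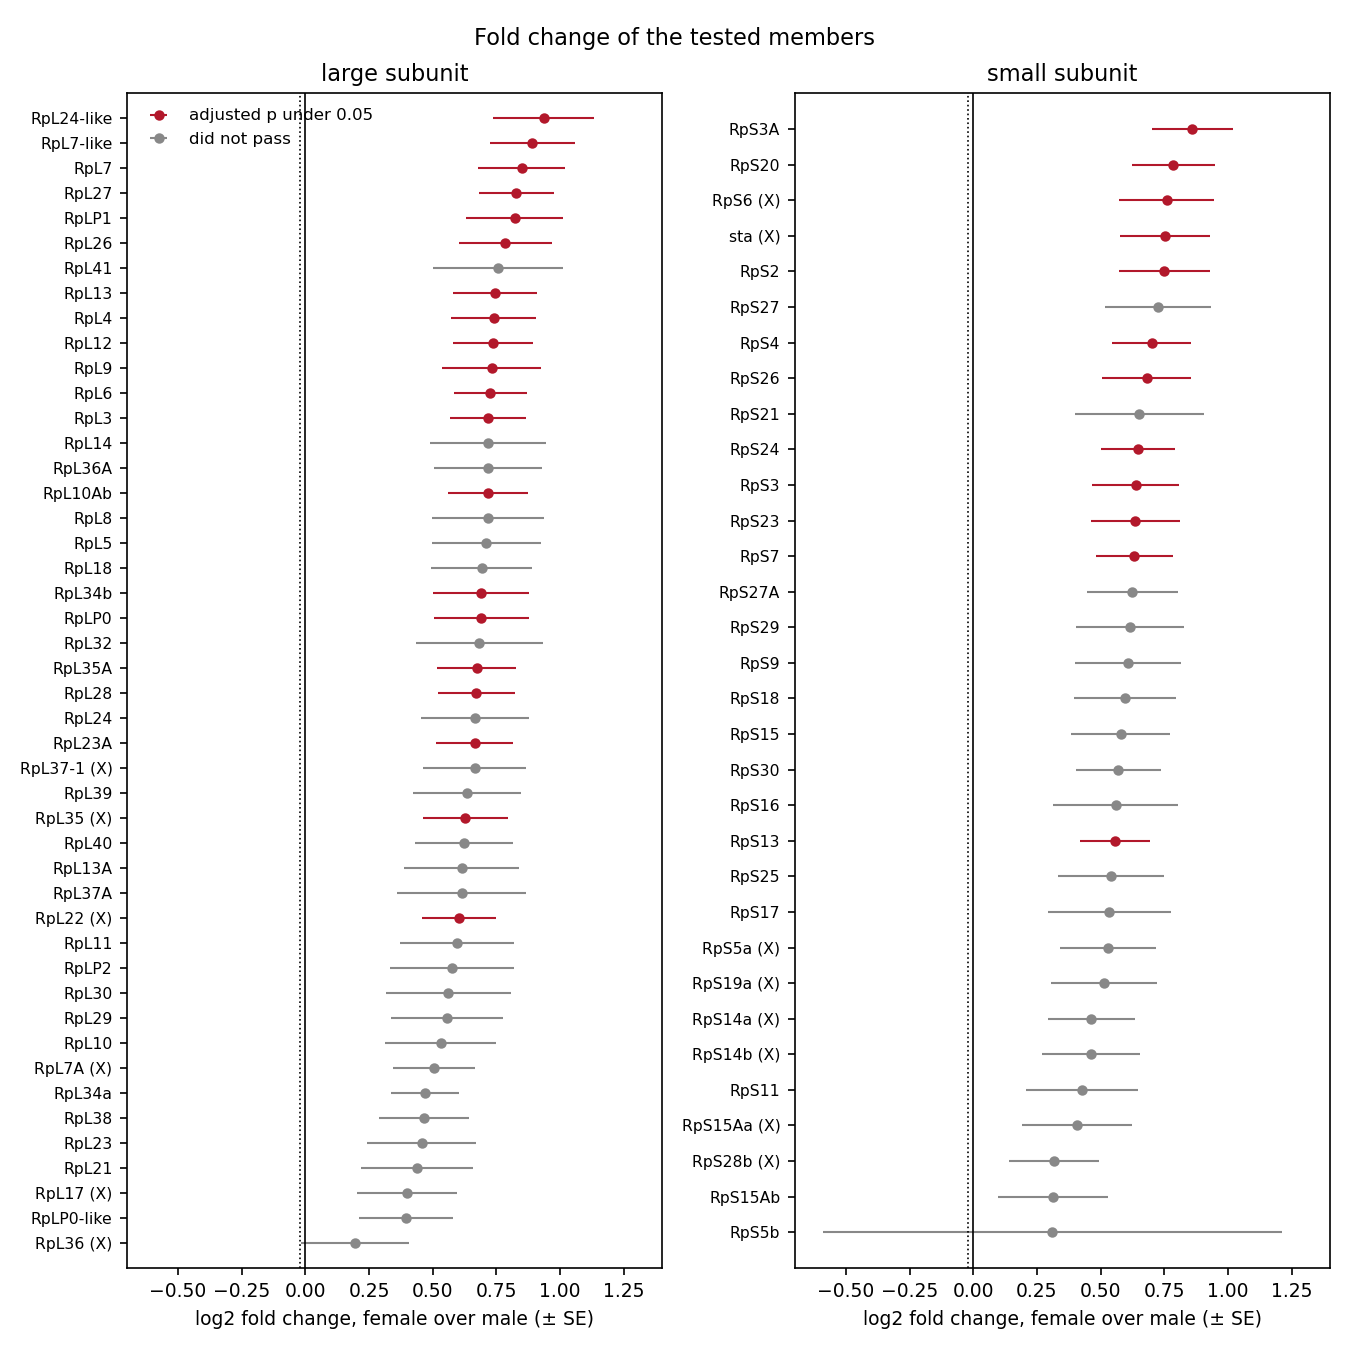
Log2 fold change of female over male for 78 of the 80 tested members, large subunit on the left and small subunit on the right, as points with standard errors; red points had an adjusted p under 0.05, X-linked genes are marked (X), and the dotted line is the median of all genes tested. All points lie above 0, from 0.20 (RpL36) to 0.94 (RpL24-like), and the bar of RpS5b is the widest.

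The lowest fold changes were those of RpL36, RpS5b, RpS15Ab, RpS28b and RpLP0-like, none of which passed. RpL36, an X-linked large subunit gene, had 1076, 1332 and 1059 CPM in females, against 831, 834 and 1361 CPM in males (log2 0.20 ± 0.21, edgeR adjusted p = 0.702). Male replicate 3 was the highest library for this gene, while male replicates 1 and 2 lay below all females. RpS28b, also X-linked and overlapping CG15317 on the opposite strand, had 887, 1078 and 874 CPM in females, against 670, 680 and 929 CPM in males (log2 0.32 ± 0.18, edgeR adjusted p = 0.362). Without male replicate 3 the log2 fold changes of RpL36 and RpS28b were 0.47 and 0.49, and neither passed (edgeR adjusted p = 0.112 and 0.0918).

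A moderate fold change passed where the libraries of each sex lay close together. RpS13, a small subunit protein, had 1046, 1075 and 1038 CPM in females, against 707, 707 and 731 CPM in males (log2 0.56 ± 0.14, edgeR adjusted p = 0.0267). A larger one did not pass where they lay apart. RpL41, the shortest protein of the ribosome with 25 residues, had 1444, 1845 and 1410 CPM in females, against 685, 736 and 1362 CPM in males (log2 0.76 ± 0.26, edgeR adjusted p = 0.102). The sexes did not overlap for RpL41, but male replicate 3 lay just under the females. RpS13 and RpL41 were chosen for this contrast after their values were seen.

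Short and long proteins differed in how male replicate 3 behaved. Among the 76 members above 100 CPM in females, the level in male replicate 3 stood above the mean of male replicates 1 and 2 by 0.05 to 0.94 on the log2 scale. The median of this difference was 0.61 for the 38 members of at most the median length of 155.5 residues and 0.43 for the 38 longer ones. Of the shorter members 10 passed as higher in females and of the longer ones 23, where 3.87% of all genes tested did. The median log2 fold changes, female over male, were 0.62 for the shorter and 0.69 for the longer members. Across these 76 genes, which share their libraries and are not independent replicates, the Spearman correlation of residues with the difference within males was -0.41. The split by length was made after the values were seen and is given without a test.

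Levels can be set between genes only per length, and 5 genes had the highest CPM per kilobase of exon. RpL41 averaged 4894 CPM per kb in females and 2898 CPM per kb in males. RpS27A, whose product is made as a fusion with ubiquitin, averaged 3015 CPM per kb in females and 1956 CPM per kb in males. RpLP1, an acidic protein of the stalk, averaged 2969 CPM per kb in females and 1679 CPM per kb in males. RpL39, a protein of the exit tunnel, averaged 2885 CPM per kb in females and 1857 CPM per kb in males, and RpL23 averaged 2440 CPM per kb in females and 1777 CPM per kb in males. The median over the 80 tested members was 1270 CPM per kb in females and 830 in males. Of these 5 genes RpLP1 passed the test between the sexes (log2 0.82 ± 0.19, edgeR adjusted p = 0.0196); its call was lost without female replicate 1 or 2 or male replicate 1 or 2. RpS27A shares 35 of its 592 exon bases with Ip259 on the same strand, so its level is uncertain to that extent, and exon lengths are those of the BDGP6 annotation, which may differ from the one used for counting.

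Paralog pairs ranged from both members well expressed to one near 0. RpL34a and RpL34b were both expressed, RpL34a with 126 ± 12.8 CPM in females and 91.3 ± 8.44 CPM in males (log2 0.47 ± 0.13, edgeR adjusted p = 0.0522), and RpL34b with 623 ± 88.0 CPM in females and 386 ± 87.5 CPM in males (log2 0.69 ± 0.19, edgeR adjusted p = 0.0424). RpL34b was the member that passed, but the share of RpL34a in the pair was 16.9% ± 0.565 in females and 19.4% ± 2.75 in males, with overlap (permutation p = 0.3, exact, and 0.6 adjusted over the 6 pairs compared). RpS14a and RpS14b, neighbouring X-linked copies that code for the same protein, had log2 fold changes of 0.46 ± 0.17 and 0.46 ± 0.19, and reads may have been split between them in ways the counting method decides. RpS14b took 33.0% ± 1.61 of the pair's counts in females and 32.9% ± 1.35 in males. RpS15Ab took 1.67% ± 0.401 of its pair in females and 1.81% ± 0.164 in males (± SD of 3 libraries), the rest being RpS15Aa, with which it may share reads. RpS15Ab itself had 20.6, 20.9 and 12.9 CPM in females, against 12.4, 13.4 and 17.9 CPM in males, so that the sexes overlapped (log2 0.31 ± 0.22, edgeR adjusted p = 0.484).

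The yeast counterparts of RpL24-like, RpL7-like and RpLP0-like act in assembly of the large subunit. RpL24-like, which overlaps Dtd on the opposite strand, had 126, 148 and 121 CPM in females, against 62.2, 51.8 and 92.2 CPM in males (log2 0.94 ± 0.20, edgeR adjusted p = 0.0131, and 0.000675 to 0.0574 with a library left out). The call was lost without female replicate 2 or male replicate 2. Its share of the counts of the RpL24 pair was 13.6% ± 0.565 in females and 11.5% ± 0.787 in males, with no overlap between the sexes. RpL24 itself did not pass (log2 0.67 ± 0.21, edgeR adjusted p = 0.0797). CG7099 on the opposite strand overlaps 273 of the 1265 exon bases of RpL24, so the share within the pair is uncertain. RpL7-like, whose level and call are uncertain because nearly all of its exon bases are shared with CG34164, had 45.9, 61.4 and 47.1 CPM in females, against 30.2, 23.1 and 29.9 CPM in males (log2 0.89 ± 0.17, edgeR adjusted p = 0.00649). RpLP0-like, which overlaps Jra on the opposite strand, had 31.7, 29.6 and 22.4 CPM in females, against 22.7, 16.5 and 24.5 CPM in males (log2 0.40 ± 0.19, edgeR adjusted p = 0.256). RpL24-like and RpL7-like stood higher in every female library than in any male library, and RpLP0-like did not. RpLP0, its partner and the core of the stalk, passed (log2 0.69 ± 0.19, edgeR adjusted p = 0.0419). Shares within pairs were compared for the 6 pairs in which both members passed the filter and the lesser one was above 1 CPM. RpL24-like had the lowest permutation p, 0.1 by the exact two-sided test, or 0.6 after adjustment over the 6 pairs. RpLP0-like (1.74% ± 0.355 in females and 2.12% ± 0.395 in males) and RpL7-like (3.29% ± 0.208 in females and 3.24% ± 0.557 in males) overlapped between the sexes in their shares.

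The remaining paralogs, several of them known from the germ line, were at or near 0. RpS5b, an ovary-enriched copy, had 4, 14 and 15 counts in females, against 4, 5 and 24 counts in males, whereas its partner RpS5a averaged 1424 ± 233 CPM in females and 987 ± 192 CPM in males. RpS5b thus passed the filter on few counts, and its log2 fold change was 0.31 ± 0.90 (edgeR adjusted p = 0.913). RpL22-like, known from the male germ line, had 0 counts in every female library, against 0, 0 and 5 counts in males. RpS19b had 0 counts in every female library, against 0, 5 and 15 counts in males, and RpL37-2, RpS10a and RpL10Aa had 14, 4 and 1 counts in male replicate 3 and 0 in the other 5 libraries. Thus 39 of the 46 counts on members that failed the filter fell in male replicate 3, the library that also held 176 of the 182 counts of the testis markers betaTub85D, can, Mst87F, Mst98Ca and aly. Their part in the levels of the other members was not tested. Of the strongly expressed partners of these genes, RpL10Ab and RpL22 passed as higher in females (log2 0.72 ± 0.16 and 0.60 ± 0.15, edgeR adjusted p = 0.015 and 0.0246; 377 of the 1100 exon bases of RpL22 overlap a noncoding RNA gene on the same strand), and RpL37-1, RpS19a and RpS5a, all X-linked, did not (log2 0.66, 0.51 and 0.53). RpS28-like had 2 counts in female replicate 1 and 0 elsewhere, and RpS28a was listed at 0 in all 6 libraries. RpL15, which is no paralog but a core protein of every ribosome, was also listed at 0 in all 6 libraries, so an exact 0 in these tables need not mean that a gene is silent.

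Relative to the list's own total, no member passed the test between the sexes. When each library was scaled to its own total over the ribosomal protein genes, in place of all genes, 0 of the 80 were higher and 0 lower in females by edgeR, against 0.693% of all genes that were higher and 38.4% that were lower on this scale. At an unadjusted p under 0.05 there was 1, RpL36. Scaling to the list's total sets the centre of the members near 0 by construction. The test could therefore show only departures of single members from the list, and with 3 libraries per sex small departures could be missed. It also draws on the spread of all genes on this scale, so a member with a steady departure could be missed too. The standard error of RpS13, for example, was 0.14 in the main fit and 0.19 here. The lack of calls thus does not show that each member kept its share of the list. Of the 80 log2 differences on this scale, 70 lay within 0.2 of 0, and they ran from -0.43 (RpL36) to 0.31 (RpL24-like). RpL36 had -0.43 ± 0.17 (edgeR adjusted p = 0.0567) and RpS28b -0.33 ± 0.16 (edgeR adjusted p = 0.11). Without male replicate 3 both passed as lower in females relative to the list, as did 63.1% of all genes tested on that scale, with edgeR adjusted p = 0.0321 for RpL36 (0.0321 to 0.178 over the alternatives) and 0.0409 for RpS28b (0.0409 to 0.292).

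X-linked members took a smaller part of ribosomal protein counts in females. The 14 X-linked genes took 17.0%, 16.9% and 17.0% of the counts of all members in female replicates 1 to 3, against 18.2%, 18.4% and 18.2% in male replicates 1 to 3. The libraries of the sexes were well apart, and male replicate 3, which stood near the females in the total, stood with the males here. The X-linked members had a median log2 fold change of 0.51 (0.20 to 0.76) and 4 of 14 passed, namely sta, RpS6, RpL35 and RpL22. The 66 tested members on other chromosomes had a median of 0.67 (0.31 to 0.94) and 30 passed, where 3.87% of all genes tested passed as higher in females. Over all genes tested the order was the other way, with a median of 0.05 for 1432 X-linked genes and -0.03 for 7141 genes annotated to the other chromosomes. Relative to the list total, 11 of the 14 X-linked members and 29 of the 66 others had a negative log2 difference. In RpS6, the small subunit protein that S6 kinase phosphorylates, 202 of 1195 exon bases overlap a pseudogene or a snoRNA gene on the same strand. It had 1544, 1962 and 1574 CPM in females, against 869, 895 and 1237 CPM in males (log2 0.76 ± 0.19, edgeR adjusted p = 0.0259). This split by chromosome was made after the values were seen and is given without a test.

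The ratio of large to small subunit counts was 1.482, 1.479 and 1.478 in females, against 1.425, 1.433 and 1.472 in males. Every female ratio lay above every male ratio, with means of 1.480 ± 0.00225 (SD, n = 3) in females and 1.443 ± 0.0247 in males (permutation test, exact and two-sided, p = 0.1). Male replicate 3 stood nearer to the females than to the other males.

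**Figure D4:**
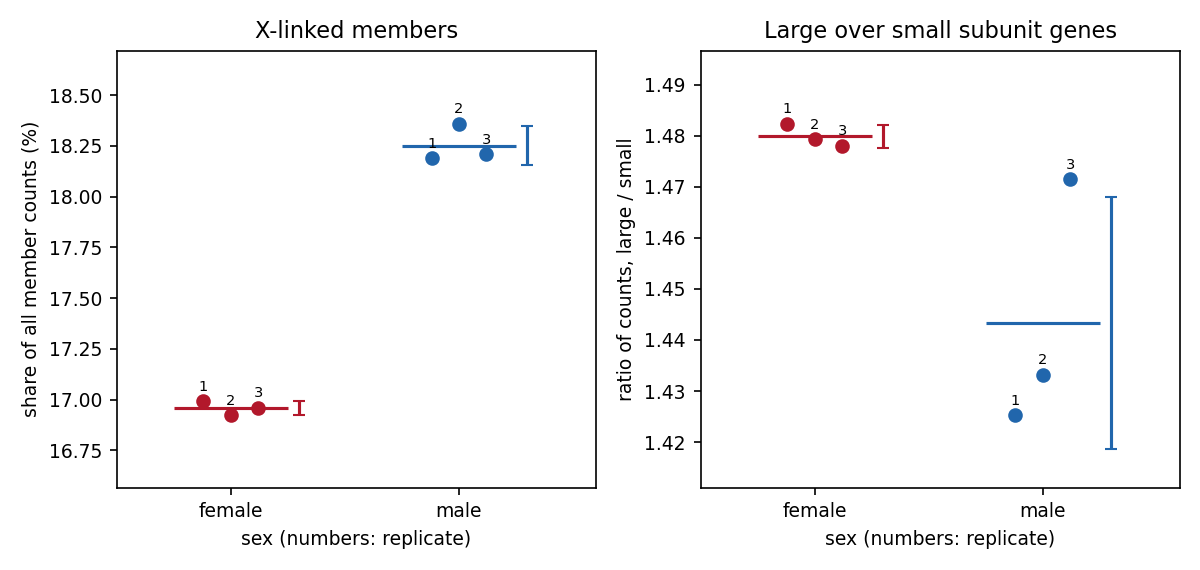
Left, share of all ribosomal protein counts, in percent, on the 14 X-linked members; right, ratio of large to small subunit counts; each point is a library with its replicate number, lines are means, bars are SD (n = 3), and neither axis starts at 0. X-linked shares lie at 16.9% to 17.0% in females and 18.2% to 18.4% in males, and the ratio of male replicate 3, 1.472, lies close under the female values.

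Genes that build and serve ribosomes were examined beside their protein components. Of 26 tested ribosome biogenesis and nucleolar genes, 14 were higher in females and 0 lower, against 3.87% and 5.53% of all genes tested. The median log2 was 0.67 and the fold change was positive in all 26. Non1, a nucleolar GTPase of large subunit assembly, had 758, 742 and 768 CPM in females, against 411, 278 and 313 CPM in males (log2 1.18 ± 0.17, edgeR adjusted p = 0.00159). Nop56 and nop5, core proteins of the particles that methylate ribosomal RNA, had log2 fold changes of 1.08 ± 0.16 and 0.91 ± 0.15 (edgeR adjusted p = 0.00164 and 0.00362). In these 3 genes male replicate 1 was the highest male library, whereas male replicates 1 and 2 were the lowest pair of all 6 for 77 of the 80 ribosomal protein genes. The number called was 4 without male replicate 2 (1.8% of all genes), 5 without female replicate 1 (1.86%) and 8 without female replicates 2 or 3 (2.52% and 2.39%). It was 16 without male replicate 1 (4.58%) and 11 without male replicate 3 (4.21%).

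The translation factors leaned the same way, with a smaller median. Of 31 initiation factor genes with a row, eIF4B was listed at 0 in every library and 30 were tested. Among these 10 were higher in females and 0 lower (median log2 0.36), against 3.87% and 5.53% of all genes tested. Of the 10, 9 code for subunits of eIF3, the large factor that binds the small subunit, and the last was eIF4A, the helicase. eIF3h had 215, 233 and 210 CPM in females, against 134, 108 and 137 CPM in males (log2 0.80 ± 0.14, edgeR adjusted p = 0.00474), and eIF3b and eIF3m had log2 fold changes of 0.79 ± 0.15 and 0.64 ± 0.13 (edgeR adjusted p = 0.00662 and 0.00918). The calls of eIF3h and eIF3b held in each fit that left out a library, whereas without male replicate 2 eIF3m did not pass (edgeR adjusted p of 0.0606). Over the list 4, 5 and 5 were called without female replicates 1, 2 and 3 (1.86%, 2.52% and 2.39% of all genes), and 2 without male replicate 2 (1.8%). Of 10 elongation and release genes 4 were higher in females and 0 lower (median log2 0.43), beside the same shares of all genes. The 4 were eEF1gamma, eEF1beta, pix, which recycles ribosomes, and Rack1, a scaffold protein on the small subunit, with log2 fold changes of 0.53 to 0.73. Without female replicate 1 or male replicate 2, 0 of the 10 passed in edgeR, and 2 passed without female replicate 2.

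RNA polymerase I transcribes the large ribosomal RNAs. Of its 7 tested genes 1, Polr1E, was higher in females (log2 0.75 ± 0.16, edgeR adjusted p = 0.0117), where 3.87% of all genes tested were higher. All 7 fold changes were positive and the median log2 was 0.67. Polr1E lost its call without female replicate 3 (edgeR adjusted p = 0.0583) or male replicate 2 (0.0649). Without male replicate 1, 3 genes passed (4.58% of all genes), and without male replicate 3, 2 passed (4.21%). Polr1A and Polr1F did not pass, with log2 0.60 ± 0.18 and 0.77 ± 0.24 (edgeR adjusted p = 0.0571 and 0.0803). Mitochondrial ribosomal proteins, which serve the separate translation system of that organelle, had a median log2 of 0.03 over 70 tested genes. None of the 70 passed in edgeR, DESeq2 or limma-voom, and 1, mRpL16, had an unadjusted p under 0.05. mRpL16 had 12.1, 14.9 and 14.7 CPM in females, against 15.6, 17.4 and 23.2 CPM in males (log2 -0.43 ± 0.18, edgeR adjusted p = 0.201). The next smallest p-values were those of mRpS29 (log2 0.39 ± 0.18) and mRpS2 (log2 0.29 ± 0.14). The list, with mRpL53 at 0, summed to 1280, 1460 and 1120 CPM in females, against 1020, 1180 and 1560 CPM in males, so that female replicate 2 and male replicate 3 were high here too.

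**Figure D5:**
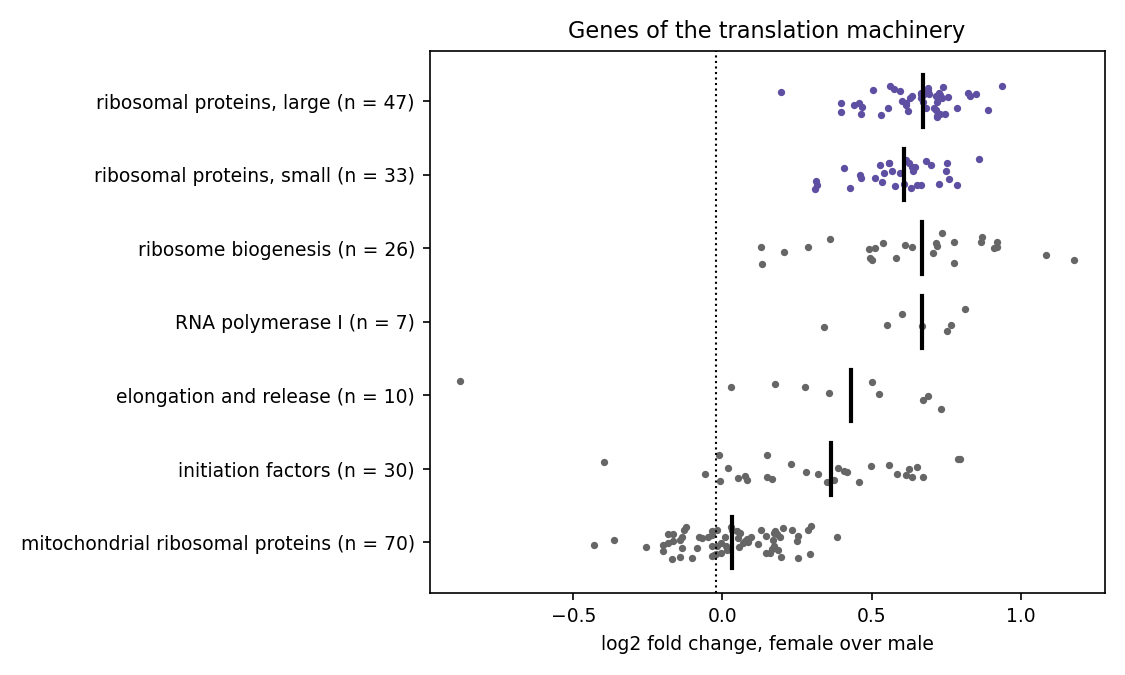
Log2 fold change of female over male for each tested gene of the large and small subunits and of 5 other groups of the translation machinery, with black bars at the medians and a dotted line at the median of all genes tested. Medians are 0.67 and 0.61 for the subunits, 0.67 for ribosome biogenesis, 0.67 for RNA polymerase I, 0.43 for elongation and release, 0.36 for initiation and 0.03 for mitochondrial ribosomal proteins.

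Among genes of growth regulation, and of ribosomal protein promoters and the response to their imbalance, Myc was higher in females and Xrp1 was lower. Myc had 179, 205 and 232 CPM in females, against 69.6, 47.5 and 49.1 CPM in males (log2 1.89 ± 0.18, edgeR adjusted p = 0.000126). It was the single call among 13 tested genes of growth regulation, whose median log2 was -0.01, where 3.87% of all genes tested were higher. Of the 17 genes on that list, Tor, S6k, InR and Maf1 matched no identifier and were not tested. For Rheb, the activator of TOR, log2 was 0.52 ± 0.18 (edgeR adjusted p = 0.101), and for Thor, the inhibitor of eIF4E, 0.55 ± 0.25 (edgeR adjusted p = 0.241). Without male replicate 1 both passed (edgeR adjusted p = 0.00752 and 0.005). Xrp1, a transcription factor induced in flies with too little of a ribosomal protein, had 1228, 1078 and 1188 CPM in females, against 2197, 2044 and 1699 CPM in males (log2 -0.77 ± 0.16, edgeR adjusted p = 0.0119). The sexes did not overlap for Xrp1, but its call was lost without female replicate 1 (edgeR adjusted p = 0.0562), female replicate 3 (0.0538) or male replicate 2 (0.0585). The other 7 genes of the promoter factor and imbalance list did not pass, among them Trl (log2 -0.38 ± 0.15) and Irbp18, the partner of Xrp1 (log2 -0.42 ± 0.24).

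Marker genes of single cell types moved with the sexes in part. The 6 enteroendocrine markers summed to 307 to 353 CPM in females and 413 to 464 CPM in males, without overlap. Of the 6, 2, Tk and AstA, were lower in females (edgeR adjusted p = 0.0335 and 0.0384), where 5.53% of all genes tested were lower. When a library was left out, both calls held without male replicate 3 and were lost in the other 5 fits. AstC and pros were lower in every female library but did not pass, Dh31 overlapped between the sexes, and NPF was level (log2 0.01 ± 0.12). Of the enterocyte markers, Myo31DF was lower in every female library and did not pass (log2 -0.34 ± 0.14, edgeR adjusted p = 0.186), and the others overlapped. Visceral muscle markers (7 genes) summed to 842 to 1630 CPM in females and 1080 to 1790 CPM in males, with the lowest sum in female replicate 2, the library with the largest ribosomal protein share, and the next lowest in male replicate 3. The stem cell and enteroblast markers klu and Sox21a summed to 7.75 to 9.34 CPM in females and 8.62 to 11.9 CPM in males. The other markers of that list, esg and Dl, matched no identifier and were not used here. The sum is therefore no measure of stem cell content. The ovary markers summed to 3.40 to 5.60 CPM in females and 4.40 to 12.6 CPM in males, with bam at 0 and otu lower in females (edgeR adjusted p = 0.0437), a call lost in limma-voom and in all fits with a library left out but that without male replicate 1. Fat body (6.90 to 25.2 CPM in females, 5.94 to 17.3 CPM in males, Fbp1 at 0), haemocyte (0.331 to 2.29 and 0.640 to 2.32 CPM, He at 0), tracheal (6.08 to 10.1 and 7.71 to 11.4 CPM) and Malpighian tubule markers (at most 8.92 CPM in any library) were low. The part of these cell types in the ribosomal protein values was not tested.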

How the data were processed

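RNA-seq counts of 6 midgut libraries, 3 of females and 3 of males, were used as deposited: whole-number counts per gene, not normalized. Per the labels' protocols, 500 ng of total RNA per library went into a kit that marks strand, and pairs of 100 bases were read; per the submitters' processing notes, TopHat2 2.0.11, HTSeq and build dm3 were used. Not given in the sources used here are the strand setting, the treatment of reads with several matches and the annotation release. Symbols came from a current name table (680 identifiers, 4.34% to 4.79% of counts, had none). For chromosome arms, exon lengths, residues and overlaps, identifiers were matched to Ensembl's BDGP6 annotation, whose build differs, so no coordinates are given.

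In R 4.3.3, genes were filtered with filterByExpr (minimum count 10, minimum total 15), scaled with TMM and compared with the robust quasi-likelihood test of edgeR 4.0.16 over all genes, two-sided, with Benjamini-Hochberg adjustment at 0.05. Standard errors restate the p-value, being the absolute log2 difference over the square root of F. Replicate pairs differed by at least 30.6 (chi-square per degree of freedom), far more than sampling noise. Single shares were compared with the exact permutation test in scipy 1.17.1. Alternatives were other scalings and filters, DESeq2 1.42.0, limma-voom 3.58.1, a replicate block and leaving out each library. On simulated data (8774 genes of 3 female and 3 male libraries, 200 changed), edgeR made 142 calls, of which 12 were false, and found 28% of 1.5-fold and 62% of 2-fold changes.

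Named members were the 10 smallest p-values, the 5 lowest fold changes, the 5 highest CPM per kb, all paralogs, the members under the filter or called against the list total, and the 3 smallest p-values of each other list. RpS13, RpS6 and members picked for their place in the ribosome were named after their values were seen. For 2 members, counted in all totals, single values are not reported here. The members and lists were chosen with earlier results of these data known.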

Additional observations from a re-analysis of the deposited data

How the results depend on the processing

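All 80 tested members kept a positive fold change with RLE factors, library totals alone, TMM factors computed without the ribosomal protein genes, DESeq2, limma-voom and the replicate block. Without the filter 86 were tested and 5 with few counts, RpS10a, RpL37-2, RpL22-like, RpL10Aa and RpS19b, had a negative one. RpS5b, with few counts, had 0.31, and 1.41 without male replicate 3, -0.0271 without male replicate 1 and -0.00105 without male replicate 2. Members higher in females numbered 34, and 57 with DESeq2, 18 (2.92% of all genes) with the replicate block and 5 at an adjusted p under 0.01. They numbered 3 to 75 when a library was left out, the extremes being without male replicates 2 and 3, and 34 to 42 with the other scalings, filters and limma-voom, where 3.08% to 5.12% of all genes passed. Over all genes, 346 were higher in females, and 552 with DESeq2, 136 at an adjusted p under 0.01 and 164 to 419 with a library left out; 494 were lower, 276 at the stricter threshold and 332 to 513 with a library left out. Against the ribosomal protein total, 0 to 2 members were lower with a library left out, where 63.1% of all genes were lower without male replicate 3. With all 6 libraries 0 members and 38.4% of all genes were lower on that scale. The shares of all genes in the other fits on that scale are not given here. The share of counts was 3.20 percentage points higher in females, 2.79 to 3.42 without any library but male replicate 3, 3.91 without that library and 4.58 without the 20 most counted genes. Deviations of same-numbered libraries correlated at -0.105, -0.276 and -0.136, which gave no sign of pairing by number, so the replicate block is given here alone. The highest correlations were those of female 1 with male 2 (0.274), female 2 with male 3 (0.221) and female 3 with male 1 (0.12). Deviations among 3 libraries depend on each other, so these values cannot decide whether libraries shared a batch. Leaving a library out puts 2 pools against 3.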

Other observations

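Introns of ribosomal protein genes carry many of the small nucleolar RNAs that guide modification of ribosomal RNA. In the annotation, 26 of the 80 tested members, 32.5%, hold at least 1 such gene on their own strand within their span, against 1.21% of all genes tested. RpS5a holds 14, RpS7 holds 7, and RpL28 and RpS16 hold 5 each. Hosts and other members had like fold changes, with 13 of 26 hosts higher in females (median log2 0.67) and 21 of 54 others (median log2 0.64), where 3.87% of all genes tested were higher. Of the 57 members with no exon overlap on the opposite strand, 24 were higher in females (median log2 0.63), as were 10 of the 23 with such an overlap.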
